A study of Mus musculus with 8 samples.

Results

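The transcripts of 33 lysosomal genes were followed in the mouse retina: 11 proteases, 10 enzymes of glycan breakdown, 7 proteins of lipid handling, 3 of the lysosomal membrane (Lamp1, Lamp2 and Scarb2), progranulin and the transcription factor TFEB. A gene was represented by the probe set whose platform annotation gave its symbol alone. All 33 were found, each with 1 such probe set, among 19938 genes with a 1-symbol probe set. The 4 groups were control superior, control inferior, hyperoxia superior and hyperoxia inferior retina of C57BL/6J mice, each hybridised on 2 of 8 Affymetrix Mouse Gene 1.0 ST arrays. Hyperoxia was 75% oxygen for 14 days, begun when mice were 83 to 90 days old. Controls were age-matched at death, all mice were reared in 12 h of 5 lux light and 12 h of darkness, and no engineered allele is named for any group. The study used hyperoxia as a stress that damages photoreceptors of the inferior retina before those of the superior retina, and asked how gene expression differs between the regions before and after it. Each sample was RNA pooled from 2 animals, 1 of each sex, so that sex and animal could not be separated, and 2 arrays a group limited the precision. The p-values below therefore measure only the spread between these pooled samples.

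Lysosomes are acidic organelles that break down material delivered by endocytosis, phagocytosis and autophagy. Their hydrolases each cut a particular kind of bond and work in sequence: cathepsins open proteins, exoglycosidases and sulfatases trim sugar chains from their ends, and lipases and ceramidases, helped by saposins, take lipids apart. Heavily glycosylated proteins such as LAMP1 and LAMP2 line the membrane, and many of the genes are under the control of TFEB, which enters the nucleus when the kinase mTORC1 is inactive. In the eye lysosomes are most worked in the retinal pigment epithelium, which digests shed outer segments, and in microglia and macrophages, which take up debris. Inherited loss of several of these enzymes, among them PPT1, TPP1 and cathepsin D, causes neuronal ceroid lipofuscinoses with retinal degeneration.

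The deposited values are log2 intensities, and array medians over 28853 probe sets lay between 6.98 and 7.05. The tissue label was checked with rod genes: the 11 measured of 13 listed lay between log2 10.11 and 14.26 on every array. Control inferior replicate 2 stood apart in 12 lens genes, whose median deviation from the 8-array mean was 3.43 there and between -0.82 and -0.02 on the other arrays. Most of the leading members' differences that use control inferior retina are therefore also given without that array. The comparisons below share samples: the inferior retina of both treatments enters several of them, so their values stand side by side and are not separate evidence.

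In the inferior retina, the lysosomal genes with the largest differences were higher after hyperoxia, with 4 proteases at the top. Cathepsin H was the 1 member that passed the adjusted threshold (limma, Benjamini-Hochberg adjusted p under 0.05 over all probe sets), and 0 members were lower. Over all probe sets, 0.43% were called higher and 0.0624% lower. Without adjustment, 9 members were higher and 0 lower at p under 0.05, where 4.96% of all probe sets were higher and 4.43% lower. The fitted difference was above 0 for 26 of 33 members and for 51.6% of probe sets, and its median was 0.15 for the members (0.082 when hyperoxia inferior replicate 2 was left out and 0.17 when the array with the lens genes was) and 0.0054 for all probe sets on the log2 scale. Both hyperoxia inferior arrays lay above both control inferior arrays for 20 members (20.5% of probe sets) and below them for 3, Ctsf, Ctsk and Smpd1 (18.1%). Most differences were small: 22 of 33 lay within 0.2 of 0, and 8 exceeded 0.35 (cathepsins H, Z, C and D, Grn, Galns, Lamp2 and Gusb).

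**Figure D1:**
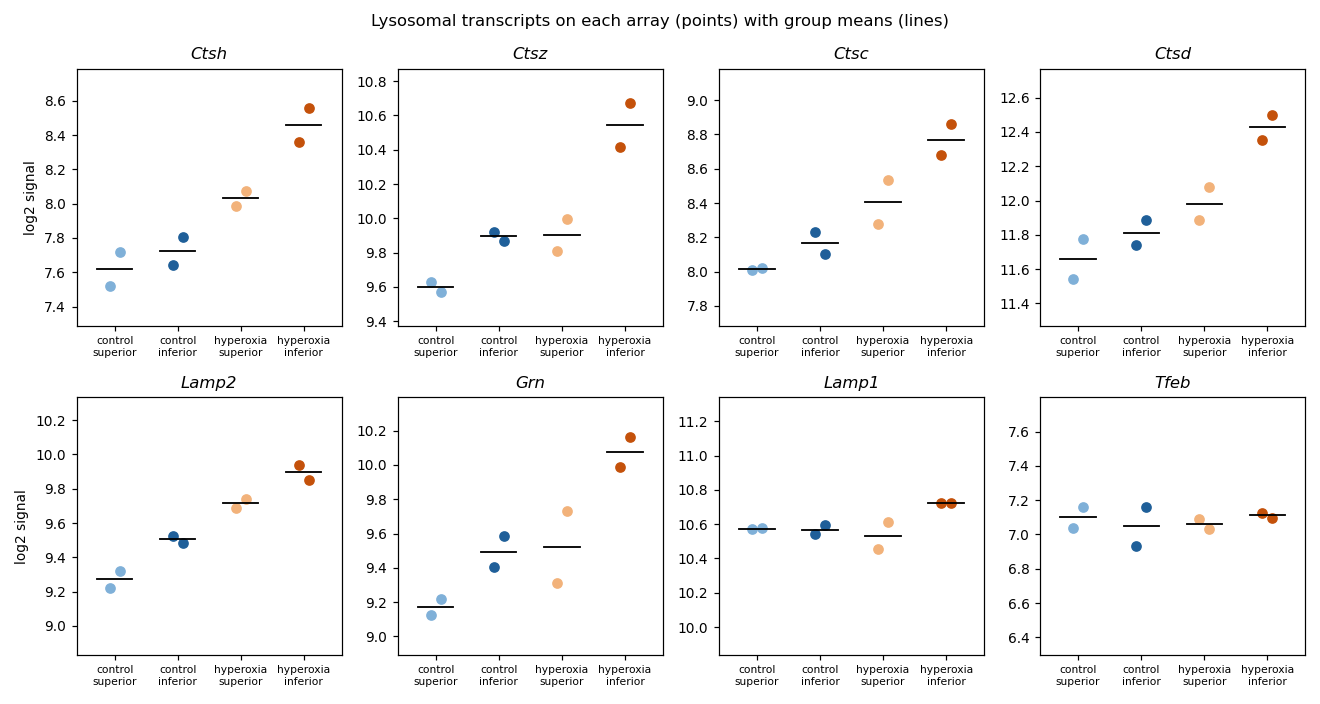
The log2 signal (vertical axis) of 8 lysosomal transcripts is plotted for each of the 8 arrays (points), by group (horizontal axis), with the group mean as a line; every panel spans the same range of log2 units. The hyperoxia inferior arrays are highest for Ctsh (8.36 and 8.56), Ctsz, Ctsc, Ctsd, Lamp2, Grn and, by a small step, Lamp1. The groups of Tfeb overlap, except that hyperoxia inferior lies just above hyperoxia superior.

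Markers of some other cell types also differed between the groups, and not all in the direction of the members. In the inferior retina 13 of 22 microglia and macrophage markers were called higher after hyperoxia and 0 lower, with a median difference of 0.81. In the superior retina 1 was called higher, with a median of 0.31. Several of these markers are on the study's list of genes that hyperoxia regulated differently between the regions. Their summed signal on the linear scale was 1860 to 1879 in control superior, 1922 to 2021 in control inferior, 2518 to 2572 in hyperoxia superior and 4619 to 5062 in hyperoxia inferior retinas. The summed signal of 12 pigment epithelium markers was 3024 and 6628 in control superior, 5106 and 10103 in control inferior, 10219 to 11051 in hyperoxia superior and 9278 to 9899 in hyperoxia inferior retinas; 0 were called in limma in the superior retina, 9 were higher unadjusted and their median difference there was 1.16. In the inferior retina 0 of these 12 were called in limma, with 5 above and 7 below 0 and a median difference of -0.03. No marker was at 0 in signal: the lowest log2 value was 3.70 among the microglia and macrophage markers and 5.14 among the pigment epithelium markers. Of 10 endothelial markers 0 were called in the inferior retina, with 2 higher and 1 lower at an unadjusted p under 0.05. Of 9 Müller cell markers 1 was called higher there, Gfap at 2.42 (limma, adjusted p = 0.000259). Glul was called lower, at -0.70 (limma, adjusted p = 0.0416). Without adjustment 2 Müller cell markers were higher and 2 lower. Of the 11 rod genes 0 were called in limma in any contrast; in the inferior retina after hyperoxia 10 were below 0 (median -0.16, with 3 lower and 0 higher unadjusted), and between the regions of hyperoxia-exposed retinas 10 were below 0 (median -0.23, with 5 lower and 0 higher unadjusted). In this bulk tissue, more cells of a type and more RNA per cell cannot be told apart, and the part of microglia, macrophages, pigment epithelium or rods in the values of the 33 genes was not tested.

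Among the 11 proteases, Ctsh encodes cathepsin H, a cysteine protease that mainly removes residues from the amino end of its substrates. Its log2 values were 7.52 and 7.72 in control superior, 7.64 and 7.80 in control inferior, 7.99 and 8.07 in hyperoxia superior and 8.36 and 8.56 in hyperoxia inferior retinas. The 4 hyperoxia arrays lay above the 4 control arrays, and both hyperoxia inferior arrays lay above all others. In the inferior retina the difference was 0.74 ± 0.11 (SE, n = 2 arrays a group; limma, adjusted p = 0.0377), which is a fold of 1.67, with a 95% confidence interval of 0.48 to 1.00 on the log2 scale. In the superior retina it was 0.41 ± 0.11 (limma, adjusted p = 0.702). The call in the inferior retina was lost when any 1 of the 8 arrays was left out (limma, adjusted p from 0.061 to 0.234), and the difference then ranged from 0.64 to 0.84. Without control inferior replicate 2 it was 0.82 (limma, adjusted p = 0.0713). The methods' post hoc contrast, which does not moderate the spread, called 0 members after the same Benjamini-Hochberg adjustment (Ctsh, adjusted p = 0.323). The study names no adjustment and selected genes on p-values with fold criteria, so this threshold is not the study's own. Limma blocked on replicate number called 2, Ctsh and Ctsd (adjusted p = 0.0207 and 0.0377).

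Cathepsin Z (Ctsz) is a carboxypeptidase that takes single residues from the other end of a chain. Its log2 values were 9.63 and 9.57 in control superior, 9.92 and 9.87 in control inferior, 9.81 and 10.00 in hyperoxia superior and 10.42 and 10.68 in hyperoxia inferior retinas. The hyperoxia inferior arrays stood above all others, while control inferior and hyperoxia superior arrays overlapped. The inferior difference was 0.65 ± 0.11 (SE; limma, adjusted p = 0.0604; 0.62 without control inferior replicate 2) and the superior one 0.30 ± 0.11 (limma, adjusted p = 0.854).

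Cathepsin C (Ctsc), a dipeptidyl peptidase, activates the serine proteases of immune cell granules. Its log2 values were 8.01 and 8.02 in control superior, 8.23 and 8.11 in control inferior, 8.28 and 8.54 in hyperoxia superior and 8.68 and 8.86 in hyperoxia inferior retinas. All 4 hyperoxia arrays lay above all 4 control arrays. The inferior difference was 0.60 ± 0.11 (SE; limma, adjusted p = 0.0788; 0.54 without control inferior replicate 2) and the superior one 0.39 ± 0.11 (limma, adjusted p = 0.723).

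Cathepsin D (Ctsd), an aspartic protease that is abundant in lysosomes of most cells, had log2 values of 11.54 and 11.78 in control superior and 11.74 and 11.89 in control inferior retinas. After hyperoxia its log2 values were 11.89 and 12.08 in superior and 12.35 and 12.50 in inferior retinas, so that the hyperoxia arrays did not overlap the controls. The inferior difference was 0.61 ± 0.12 (SE; limma, adjusted p = 0.0885; 0.69 without control inferior replicate 2) and the superior one 0.32 ± 0.12 (limma, adjusted p = 0.849).

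The other proteases gave smaller values. Cathepsin A (Ctsa), which protects neuraminidase and beta-galactosidase in a complex, had an inferior difference of 0.25 ± 0.10 (limma, unadjusted p = 0.0378, adjusted p = 0.494). Inferior differences were 0.18 for cathepsin B, 0.14 for legumain (Lgmn, an asparaginyl endopeptidase), 0.01 for cathepsin L and 0.01 for Tpp1. Cathepsin K, the collagen-degrading protease of osteoclasts, was the member with the lowest value, -0.30 ± 0.14 (limma, unadjusted p = 0.0529, adjusted p = 0.545). Its control inferior values were 7.03 and 6.61, and the difference was -0.10 without replicate 1 of that group and -0.51 without replicate 2.

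Cathepsin F (Ctsf) is described because its arrays separated the other way, and was chosen after its values were seen. Its log2 values were 10.39 and 10.31 in control superior, 10.20 and 10.23 in control inferior, 10.16 and 10.18 in hyperoxia superior and 10.09 and 10.11 in hyperoxia inferior retinas. All 4 control arrays lay above all 4 hyperoxia arrays, by small steps. Averaged over the regions its difference was -0.15 ± 0.06 (SE; limma, unadjusted p = 0.0346, adjusted p = 0.501), and it did not pass the adjusted threshold.

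The 10 enzymes of glycan and glycosaminoglycan breakdown had a median inferior difference of 0.16 on the log2 scale. Of these, 9 were above 0, 2 passed an unadjusted p under 0.05 and 0 passed the adjusted threshold. Beta-glucuronidase (Gusb) had log2 values of 6.62 and 6.61 in control superior, 6.70 and 6.99 in control inferior, 6.77 and 6.997 in hyperoxia superior and 7.19 and 7.28 in hyperoxia inferior retinas, a difference of 0.39 ± 0.12 (SE; limma, adjusted p = 0.329) in the inferior retina. That difference was 0.24 without control inferior replicate 1 and 0.54 without replicate 2. Galns, a sulfatase that acts on keratan and chondroitin sulfate, had log2 values of 6.99 and 7.02 in control superior, 6.74 and 7.30 in control inferior, 7.23 and 7.47 in hyperoxia superior and 7.54 and 7.56 in hyperoxia inferior retinas. Its inferior difference was 0.53 ± 0.17 (SE; limma, adjusted p = 0.333) and changed with the control array kept, from 0.25 without control inferior replicate 1 to 0.81 without replicate 2. Both genes were highest on the hyperoxia inferior arrays. The other members lay between -0.09 for alpha-galactosidase A (Gla) and 0.18 for Naglu, an enzyme of heparan sulfate breakdown; Gaa, Glb1, Hexa, Idua, Man2b1 and Neu1, which cleave glucose, galactose, hexosamine, iduronic acid, mannose and sialic acid, lay between 0.07 and 0.17.

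The 7 genes of lipid handling had a median inferior difference of -0.01, with 3 above and 4 below 0, and 0 passed either the adjusted or the unadjusted threshold in limma. Npc2, which hands cholesterol to NPC1 inside the lysosome, had the highest value at 0.22 ± 0.11, and Npc1 itself was at -0.01. Prosaposin (Psap), the precursor of the saposins, was at 0.04, the thioesterase Ppt1 at 0.07, acid ceramidase (Asah1) at -0.03, acid lipase (Lipa) at -0.06 and acid sphingomyelinase (Smpd1) at -0.10.

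Of the 3 membrane proteins, Lamp2, which also takes part in the fusion of autophagosomes and in chaperone-mediated autophagy, had log2 values of 9.22 and 9.32 in control superior, 9.53 and 9.48 in control inferior, 9.69 and 9.74 in hyperoxia superior and 9.94 and 9.85 in hyperoxia inferior retinas. The 4 groups did not overlap and followed that order. Its differences were 0.39 ± 0.09 in the inferior (SE; limma, adjusted p = 0.136; 0.37 without control inferior replicate 2) and 0.44 ± 0.09 in the superior retina (limma, adjusted p = 0.445), so that Lamp2 was the member with the largest superior difference. Lamp1, its close relative, was at 10.57 and 10.58 in control superior, 10.54 and 10.59 in control inferior, 10.45 and 10.61 in hyperoxia superior and 10.72 and 10.72 in hyperoxia inferior retinas. Its inferior difference was 0.15 (limma, adjusted p = 0.658; 95% interval -0.05 to 0.36; 0.18 without control inferior replicate 2), and its superior difference -0.04. Scarb2, the receptor that carries glucocerebrosidase to lysosomes, had an inferior difference of 0.16.

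Progranulin (Grn), a secreted protein that is also processed in lysosomes, had log2 values of 9.12 and 9.22 in control superior, 9.40 and 9.58 in control inferior, 9.31 and 9.73 in hyperoxia superior and 9.99 and 10.16 in hyperoxia inferior retinas. The hyperoxia inferior arrays were highest, and the hyperoxia superior arrays spanned the control inferior ones. The inferior difference was 0.58 ± 0.14 (SE; limma, adjusted p = 0.176; 0.68 without control inferior replicate 2). Tfeb transcript had log2 values of 7.04 and 7.16 in control superior, 6.93 and 7.16 in control inferior, 7.09 and 7.03 in hyperoxia superior and 7.12 and 7.10 in hyperoxia inferior retinas. The groups overlapped, except that both hyperoxia inferior arrays lay just above both hyperoxia superior ones. Its inferior difference was 0.06 (limma, adjusted p = 0.888; 95% interval -0.17 to 0.30; 0.18 without control inferior replicate 2); the array does not measure the protein or its place in the cell.

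**Figure D2:**
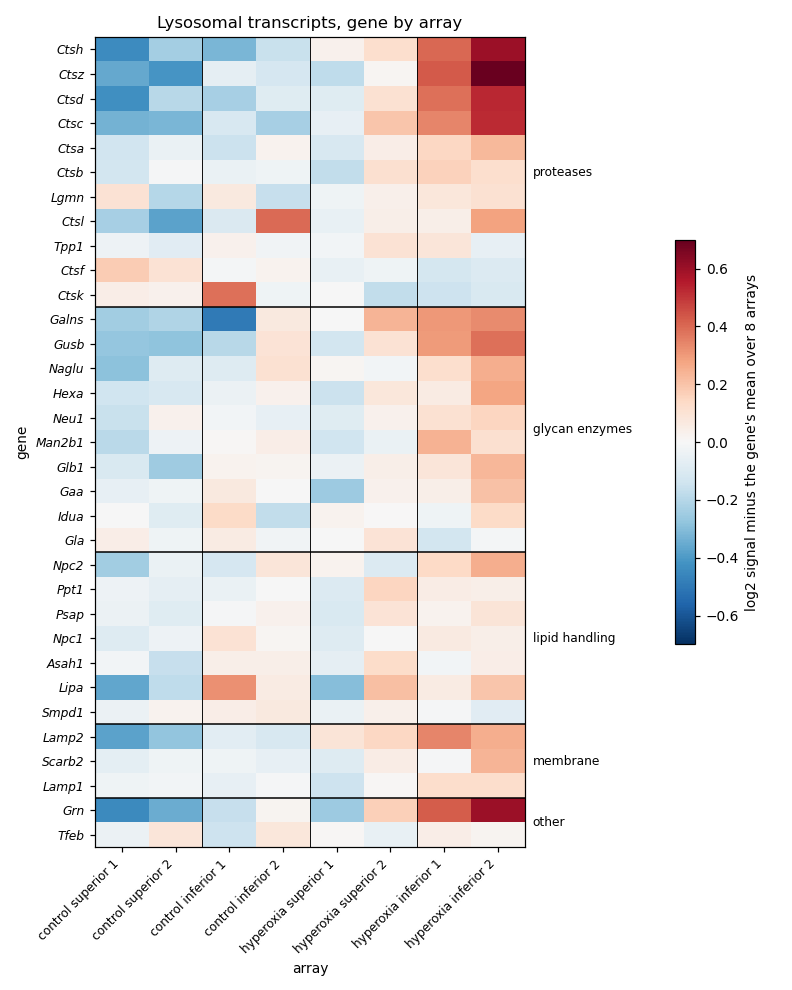
Each cell gives the log2 signal of 1 gene on 1 array minus that gene's mean over the 8 arrays, with genes in rows by role and arrays in columns by group. The highest values lie in the hyperoxia inferior columns for the upper 4 proteases, Galns, Gusb and Grn, while most genes of lipid handling stay pale; Ctsk and Lipa are highest on control inferior replicate 1 and Ctsl on control inferior replicate 2.

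Averaged over both regions, 4 members passed the adjusted threshold, all of them higher after hyperoxia. This contrast counted superior and inferior samples as separate, though they may share animals. Ctsh differed by 0.57 ± 0.08 (SE; limma, adjusted p = 0.0211), Lamp2 by 0.42 ± 0.06 (limma, adjusted p = 0.0266), Ctsc by 0.50 ± 0.08 (limma, adjusted p = 0.0423) and Ctsz by 0.48 ± 0.08 (limma, adjusted p = 0.0484). Ctsd, at 0.47 ± 0.08, did not (limma, adjusted p = 0.0633). Over all probe sets 0.447% were called higher and 0.121% lower in this contrast. Without adjustment 10 members were higher and 1, Ctsf, was lower, against 4.96% and 4.02% of probe sets. The difference was above 0 for 29 of 33 members and for 51.5% of probe sets, with a median of 0.10. With 1 array left out at a time, between 0 and 2 members were called: Ctsh and Galns, the latter not called with all arrays, when control inferior replicate 2 was omitted (limma, adjusted p = 0.0341 and 0.0328), and Ctsh when hyperoxia inferior replicate 1 was, while Ctsc, Ctsz and Lamp2 lost the call whichever array was left out (limma, lowest adjusted p of 0.0629, 0.0521 and 0.0600). Without control inferior replicate 2 the differences of Ctsh, Lamp2, Ctsc and Ctsz were 0.62, 0.41, 0.47 and 0.46. The methods' contrast, adjusted in the same way, called 0 members. Limma blocked on replicate number called Ctsh and Ctsd (adjusted p = 0.0124 and 0.0263), not Lamp2, Ctsc or Ctsz (adjusted p = 0.0508, 0.0576 and 0.0655).

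Where RefSeq held a promoter for these genes, its sequence is shown because TFEB binds the CLEAR element, which is built around CACGTG, and because the members that passed the test could be set beside those that carry the element. Windows ran from 250 bases before to 50 after the transcript start in GRCm38.p6, and 28 of 33 members had 1 or more (Asah1, Ctsb, Ctsh, Galns and Npc1 are not among them). CACGTG, which reads the same on both strands, was in the windows of 10 of these 28 genes (35.7%) and of 2187 of 27025 genes in the table (8.09%). TCACGTGA, the centre of the element, which contains CACGTG and is also its own reverse complement, was in those of 3 members (10.7%), Ctsa, Ctsd and Gla, and of 304 genes (1.12%). The 250 bases before the start are given for Ctsd and Gla and 30 bases around each of the 2 matches for Ctsa, 5′ to 3′ on the gene's strand, with the matches in capitals.
Ctsd, chr7:142387828-142388077, minus strand: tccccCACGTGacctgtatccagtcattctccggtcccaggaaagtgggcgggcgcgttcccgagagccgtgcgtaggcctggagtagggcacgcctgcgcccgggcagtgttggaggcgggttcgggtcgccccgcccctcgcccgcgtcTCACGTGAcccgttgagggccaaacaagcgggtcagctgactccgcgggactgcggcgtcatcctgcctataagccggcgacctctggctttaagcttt
Gla, chrX:134601006-134601255, minus strand: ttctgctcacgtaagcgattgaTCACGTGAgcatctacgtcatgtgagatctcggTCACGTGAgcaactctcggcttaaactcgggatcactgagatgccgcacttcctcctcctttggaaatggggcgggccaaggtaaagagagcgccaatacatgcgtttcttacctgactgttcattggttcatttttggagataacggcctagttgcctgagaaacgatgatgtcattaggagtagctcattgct
Ctsa, first match, chr2:164833749-164833778, plus strand: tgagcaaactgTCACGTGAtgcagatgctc
Ctsa, second match, chr2:164833766-164833795, plus strand: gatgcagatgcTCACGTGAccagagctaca
The TCACGTGA matches of Gla lie farther before the start than that of Ctsd, which has a further CACGTG near the far end of its window, and those of Ctsa lie on either side of the start. Of the members called in the contrast averaged over the regions, Ctsc, Ctsz and Lamp2 had a window, and no CACGTG was in any of them. Their 250 bases before the start, all in lower case since they hold no match, are these.
Ctsc, chr7:88277835-88278084, plus strand: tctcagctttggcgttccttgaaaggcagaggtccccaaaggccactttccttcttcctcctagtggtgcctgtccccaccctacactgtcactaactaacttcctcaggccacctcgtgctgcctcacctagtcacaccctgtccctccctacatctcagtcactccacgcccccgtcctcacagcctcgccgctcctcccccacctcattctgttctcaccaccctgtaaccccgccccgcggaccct
Ctsz, chr2:174439040-174439289, minus strand: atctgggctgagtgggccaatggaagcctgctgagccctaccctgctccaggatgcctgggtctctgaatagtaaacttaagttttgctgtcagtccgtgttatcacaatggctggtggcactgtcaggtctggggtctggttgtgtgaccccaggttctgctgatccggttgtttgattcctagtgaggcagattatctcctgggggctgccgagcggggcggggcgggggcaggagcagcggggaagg
Lamp2, chrX:38456461-38456710, minus strand: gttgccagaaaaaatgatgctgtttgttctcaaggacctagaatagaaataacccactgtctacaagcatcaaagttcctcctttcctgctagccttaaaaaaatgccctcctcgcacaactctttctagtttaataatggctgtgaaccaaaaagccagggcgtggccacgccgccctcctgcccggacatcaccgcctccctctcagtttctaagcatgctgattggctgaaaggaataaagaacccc
In the inferior retina the 10 members with CACGTG had a median difference of 0.14 (range -0.11 to 0.61) and the 18 without it one of 0.16 (range -0.30 to 0.65). The 3 members with TCACGTGA differed among themselves: Ctsd was at 0.61, Ctsa at 0.25 and Gla at -0.09. A match describes the letters in this window and is no evidence of binding.

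In the superior retina 0 members passed the adjusted threshold in limma, where 0.0139% of probe sets were called higher and 0.00347% lower. The methods' post hoc contrast, adjusted in the same way, also called 0. Without adjustment 6 members were higher and 0 lower (3.43% and 2.16% of probe sets): Lamp2, Ctsh and Ctsc, given above, and Ctsd, Ctsz and Grn, at 0.32, 0.30 and 0.35. The fitted difference was above 0 for 28 of 33 members (50.6% of probe sets), with a median of 0.08. In the same contrast the pigment epithelium and the microglia and macrophage markers had the medians of 1.16 and 0.31 given above. The members' median rested on single arrays: it was -0.0061 without hyperoxia superior replicate 2 and 0.16 without replicate 1. The hyperoxia arrays lay above the control arrays for 13 members (18.7% of probe sets) and below them for Ctsf and Ctsk (17.2%). Replicate 2 was above replicate 1 for 28 of 33 members in hyperoxia superior (median difference 0.12, against 49.4% of all probe sets), 25 in hyperoxia inferior (0.083, 55.3%), 20 in control superior (0.027, 47.1%) and 19 in control inferior retinas (0.023, 50.9%).

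**Figure D3:**
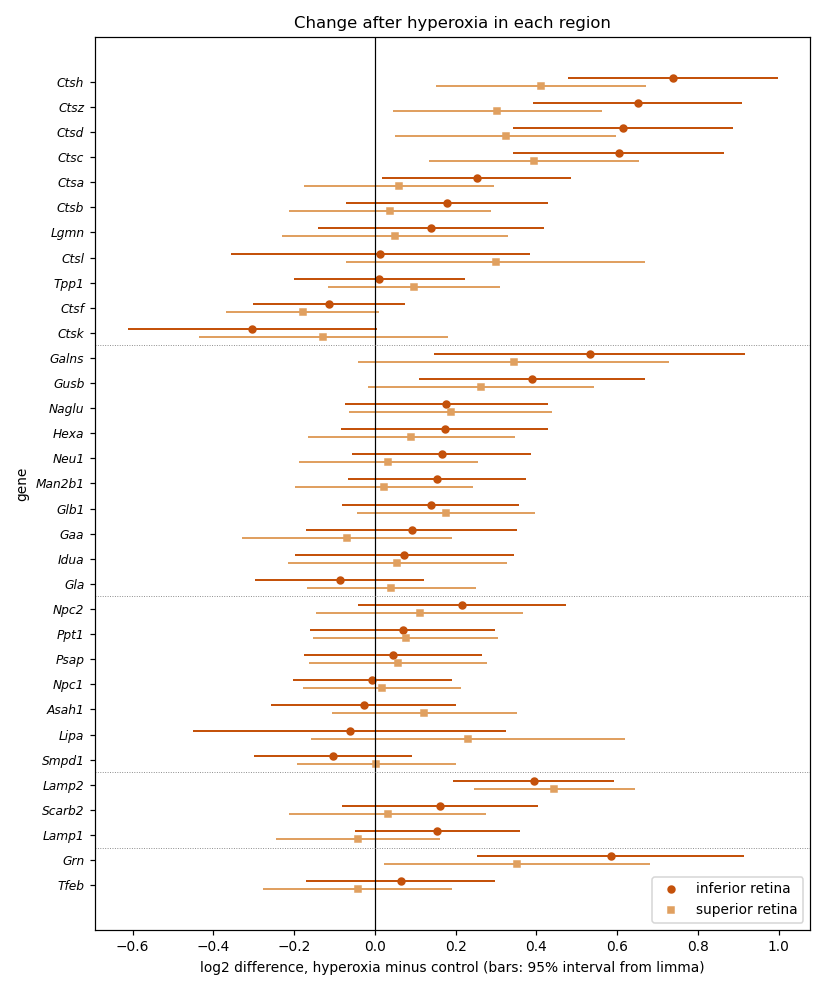
Points give the log2 difference of hyperoxia minus control for each of the 33 genes in the inferior (circles) and superior (squares) retina, and bars the 95% confidence interval from limma with 2 arrays a group, unadjusted for the number of genes; dotted lines separate the roles. The inferior value of Ctsh lies at 0.74 (0.48 to 1.00), the values of most members lie within 0.2 of 0, and the bars of both regions overlap for every member.

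The change with hyperoxia was set against itself between the regions by the interaction term. In limma 0 members passed the adjusted threshold, and 0 were higher and 0 lower at an unadjusted p under 0.05, where 3.02% and 3.03% of probe sets were; 0.00347% of probe sets were called higher and 0% lower. The smallest p-values were those of Ctsz (0.35 ± 0.16, SE; limma, adjusted p = 0.822), Ctsh (0.33 ± 0.16; limma, adjusted p = 0.826) and Ctsd (0.29 ± 0.17; limma, adjusted p = 0.851), so no member was shown to differ in its response between the regions. The term was above 0 for 20 of 33 members and for 50.8% of probe sets. Its median was 0.09 with all arrays and 0.017 when hyperoxia superior replicate 1 was left out. Leaving out replicate 1 of the control inferior, replicate 2 of the hyperoxia inferior or replicate 2 of the control superior retinas gave 0.031, 0.046 and 0.054, and leaving out the array with the lens genes gave 0.11. On the study's own scale, the fold ratio of hyperoxia to control ran from 0.81 to 1.67 in the inferior and from 0.883 to 1.36 in the superior retina. The fold margin, inferior minus superior fold ratio, ran from -0.221 to 0.337; it was above 0 for 20 of 33 members, and 0 exceeded the study's threshold of 0.5.

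Between the regions of control retinas 0 members were called in limma, as were 0% of all probe sets in each direction. The methods' contrast, adjusted in the same way, also called 0. Without adjustment 4 members were higher in the inferior retina and 0 lower (2.49% and 2.81% of probe sets). Cathepsin L (Ctsl), a cysteine endopeptidase, had log2 values of 10.23 and 10.09 in control superior, 10.36 and 10.86 in control inferior, 10.41 and 10.50 in hyperoxia superior and 10.50 and 10.74 in hyperoxia inferior retinas, and differed between control regions by 0.45 ± 0.16 (SE; limma, adjusted p = 0.916). Its highest value was on the array with the lens genes, and without that array the difference was 0.20 (limma, adjusted p = 0.755), against 0.70 without control inferior replicate 1. Lipa, the lipase of cholesteryl esters and triglycerides, had log2 values of 7.48 and 7.67 in control superior, 8.17 and 7.90 in control inferior, 7.55 and 8.06 in hyperoxia superior and 7.90 and 8.04 in hyperoxia inferior retinas, and differed by 0.46 ± 0.17 (limma, adjusted p = 0.92), or 0.59 without control inferior replicate 2. Lamp2 differed by 0.23 ± 0.09 (limma, adjusted p = 0.92) and Ctsz by 0.29 ± 0.11 (limma, adjusted p = 0.92), and without that array by 0.25 and 0.32. The value was above 0 for 30 of 33 members and for 50.7% of probe sets, with a median of 0.10, or 0.08 without control inferior replicate 2 and 0.065 when control superior replicate 1 was the array omitted. The control inferior arrays lay above the superior ones for 17 members (17.5% of probe sets) and below them for Ctsf (16.7%). In the same contrast 11 of 12 pigment epithelium markers were above 0 and 1 below, with a median of 0.62. Of these, 0 were called in limma and 2 were higher unadjusted. Of the 22 microglia and macrophage markers 14 were above and 8 below 0, with a median of 0.07. Their part in the members' values was not tested.

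Between the regions of hyperoxia-exposed retinas 0 members passed the adjusted threshold in limma, while 0.125% of probe sets were called higher in the inferior retina and 0.0139% lower. The methods' contrast, adjusted in the same way, also called 0. Without adjustment 7 members were higher in the inferior retina and 0 lower, where 4.25% of probe sets were in either direction. The smallest p-values belonged to Ctsz at 0.64 ± 0.11 (SE; limma, adjusted p = 0.142), Grn at 0.56 ± 0.14 (limma, adjusted p = 0.334) and Ctsh at 0.43 ± 0.11 (limma, adjusted p = 0.341). The value was above 0 for 27 of 33 members and 50.9% of probe sets, with a median of 0.17, or 0.091 without hyperoxia superior replicate 1 and 0.11 without hyperoxia inferior replicate 2. The inferior arrays lay above the superior ones for 21 members (20% of probe sets) and below them for Ctsf and Gla (18.5%).

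Ordered by group means, hyperoxia inferior retina held the highest mean for 25 of 33 members and for 28.3% of probe sets, and control superior retina the lowest for 26 members and for 24.2% of probe sets. Both hyperoxia inferior arrays lay above the other 6 arrays for 16 members, against 6.95% of probe sets. All 4 hyperoxia arrays lay above all 4 control arrays for Ctsc, Ctsd, Ctsh and Lamp2, against 2.9% of probe sets, and the reverse held for Ctsf alone, against 2.58%. Neighbouring groups often did not separate: control inferior and hyperoxia superior arrays of Ctsz and Grn overlapped, as described above.

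Other genes of the organelle, taken from lists beside the 33, gave a mixed picture in the inferior retina. Of 29 measured of 36 other lysosomal enzymes, 1 was called higher and 0 lower, and their median difference was 0.03. It was cathepsin S (Ctss), the protease that trims the invariant chain in antigen-presenting cells, with log2 values of 9.09 and 8.94 in control superior, 9.22 and 9.20 in control inferior, 9.70 and 9.83 in hyperoxia superior and 10.72 and 10.90 in hyperoxia inferior retinas. Its difference was 1.60 ± 0.10 (SE; limma, adjusted p = 0.000694). Of 24 other membrane proteins 2 were called higher and 0 lower, with a median of 0.02: Laptm5, a membrane protein of blood-derived cells, at 1.60 ± 0.12 (limma, adjusted p = 0.00114), and Cd68, the macrophage relative of the LAMP proteins, at 1.71 ± 0.15 (limma, adjusted p = 0.00216). Ctss, Laptm5 and Cd68 are on the study's own list of genes that hyperoxia regulated differently between the regions, another measure than the inferior difference. As these arrays gave rise to that list, the direction of these genes is not independent evidence.

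Lists for the machinery that acidifies, supplies and regulates the organelle held no called gene; their unadjusted counts stand beside 4.96% of all probe sets higher and 4.43% lower. Of the subunits of the proton pump (V-ATPase) 19 of 20 were measured, 0 were called and 1 passed an unadjusted p under 0.05, with a median of 0.02; Tcirg1, a membrane subunit, was at 0.28 (limma, adjusted p = 0.385) and Atp6ap2 at -0.12 (limma, adjusted p = 0.793). Of 20 measured sorting genes 0 were called and 1 passed unadjusted, with a median of -0.02; Vps11 was at 0.20 (limma, adjusted p = 0.505) and Igf2r, the cation-independent mannose 6-phosphate receptor, at -0.15 (limma, adjusted p = 0.658). Of 17 genes of the TFEB family and of mTORC1 signalling at the lysosome 0 were called and 1 passed unadjusted. Their median was 0.02. Lamtor5 was at 0.40 (limma, adjusted p = 0.305) and Flcn at 0.17 (limma, adjusted p = 0.606). Mitf was at 0.08 (limma, adjusted p = 0.881), and at -0.002 in the superior retina (limma, adjusted p = 0.999). The study lists Mitf as falling with hyperoxia in inferior retina and rising with it in superior retina. These Mitf values did not show that pattern, and the reason was not tested. Of 19 autophagy genes 0 were called and 2 passed unadjusted, with a median of -0.01; Gabarap was at 0.31 (limma, adjusted p = 0.216) and Wipi1 at 0.23 (limma, adjusted p = 0.494). Of 6 cathepsin inhibitors 0 were called and 3 were higher unadjusted, with a median of 0.22; Cst7, the inhibitor of cathepsin C known from immune cells, was at 1.05 (limma, adjusted p = 0.0609) and Ctla2a at 0.91 (limma, adjusted p = 0.11), and both are on the study's list too.

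**Figure D4:**
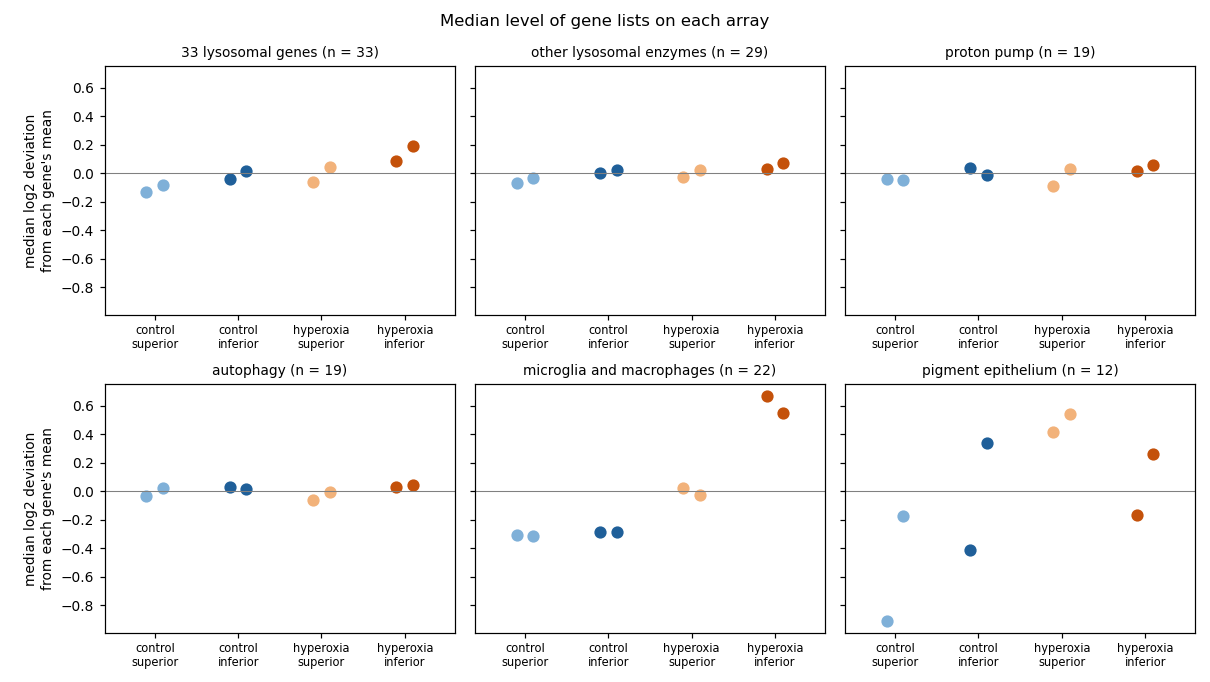
Each point is the median over a gene list of the log2 signal minus the gene's mean over the 8 arrays (vertical axis), for 1 array, by group (horizontal axis). The 33 lysosomal genes run from -0.13 to 0.195, the microglia and macrophage markers from -0.32 to 0.67 and the pigment epithelium markers from -0.91 to 0.54.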

How the data were processed

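The authors deposited log2 values of 8 Affymetrix Mouse Gene 1.0 ST arrays, summarised in Partek by median polish after RMA background correction. Versions were not given in the sources used here, nor was a quantile step. The values were used as deposited, without further normalization. Of 28853 probe sets, 21789 had 1 gene symbol in the platform annotation, 1621 several and 5443 none listed; 21698 of the first were matched by Entrez ID to the RefSeq table of GRCm38.p6, which changed 0 symbols. Because each of the 33 genes had 1 probe set, the planned mean over several could not differ and was not run.

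Group means were fitted over all probe sets and arrays with limma 3.58.1 in R 4.3.3 (4 residual and 4.47 prior degrees of freedom). The 6 contrasts were hyperoxia against control in each region and averaged over both, inferior against superior in each treatment, and their interaction; p-values were adjusted by Benjamini-Hochberg within each contrast, with a threshold of 0.05. The script was tested on simulated data. Fold ratios are 2 raised to the difference of mean log2 values. Summed signals are sums of 2 raised to the log2 value. Values on every array are given for members past the threshold in any contrast, the 8 with the smallest p in the inferior retina, the 3 in each other contrast, and Lamp1, Lamp2 and Tfeb. From other lists, differences are given for genes past the threshold (at most 6) or else the 2 with the smallest p, and for Mitf, which the study lists.

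The members and gene lists were chosen with earlier results of these data known, so counts over them are descriptions. Replicate numbers were not treated as pairs: the methods state that replicates were run separately, the sources do not say which arrays shared a run, and correlations of same-numbered arrays' deviations from their group means ran from -0.0213 to 0.144. Alternatives were another normalization, filter, set of probe sets, prior, set of samples or test, a replicate block, and each array left out in turn. The 2 arrays a group limit the precision. Promoter sequences are from RefSeq.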

Additional observations from a re-analysis of the deposited data

How the results depend on the processing

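In the inferior retina the count of members called, 1 in the report, was 4 (cathepsins H, Z, C and D) with probe sets of mean log2 under 6 left out, 5 (these and Lamp2) with a variance trend, 2 (Ctsh and Ctsz) over 1-symbol probe sets, 2 (Ctsh and Ctsd) with the replicate number as a block, and 0 both over the arrays compared alone and in the methods' contrast without moderation (Ctsh, adjusted p = 0.323); leaving out 1 array gave 0 to 0. Averaged over both regions, where 4 were called, the replicate block called 2 (Ctsh and Ctsd; Lamp2, Ctsc and Ctsz were lost), the contrast without moderation 0, and fits with 1 array left out 0 to 2. Between regions after hyperoxia the variance trend called 1 (Ctsz). Whether a replicate number marks a shared run was not given in the sources used here, so the block is an alternative. Counts in the other contrasts remained 0 in every alternative run; the fit over the compared arrays alone was not planned for the interaction and the averaged contrast. With 1 array left out, the member medians ranged from 0.0821 to 0.173 (hyperoxia, inferior), -0.0061 to 0.16 (hyperoxia, superior), 0.065 to 0.118 (regions, control), 0.091 to 0.21 (regions, hyperoxia), 0.017 to 0.115 (interaction) and 0.0699 to 0.133 (averaged). Of 33 inferior differences, 26 kept their direction in all 17 alternatives and 7, none larger than 0.07 in the report, did not: with median centring Ctsl was at -0.011 and Tpp1 at -0.013, with quantile normalization Npc1 was at 0.0033, and with 1 array left out Ctsl ranged from -0.24 to 0.26, Tpp1 from -0.060 to 0.082, Idua from -0.082 to 0.23, Asah1 from -0.063 to 0.0068, Lipa from -0.20 to 0.070, Npc1 from -0.048 to 0.036 and Tfeb from -0.049 to 0.18. The causes were not tested.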
